A study of Homo sapiens with 8 samples.

Results

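The 10 genes described here belong to the NF-kB pathway and were followed in MCF10A cells, a non-tumorigenic human mammary epithelial line, with and without p53: the 5 subunits NFKB1, NFKB2, REL, RELA and RELB, and the 5 feedback genes NFKBIA, NFKBIE, NFKBIZ, TNFAIP3 and BIRC3. They were chosen by name and role, with earlier results of these data known, and are 10 of 20292 genes that could be named on the array. RNA came from p53+/+ and p53-/- cells that were either untreated (0 h) or harvested at 12, 24 or 48 h after adriamycin (ADR, also called doxorubicin), an anthracycline that damages DNA, given at 0.5 µg/ml for 2 h according to the labels; the methods of the study give a higher dose. Each genotype and time had 1 array, 8 in all, so no value for a single time has a replicate error. Untreated cells were taken when the treated cells received ADR, so time in culture and ADR cannot be told apart in any change from 0 h. How p53 was removed from the p53-/- cells, and whether they are 1 clone, is not given in the sources used here, and differences between the lines other than p53 cannot be told apart from it.

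NF-kB is a family of dimeric transcription factors that switches on genes of inflammation and survival. In resting cells the dimers are held in the cytoplasm by IkB proteins. Signals from cytokine receptors, or from DNA breaks through ATM and NEMO, activate the IkB kinase complex, IkB is degraded and the dimers enter the nucleus. Among their targets are genes of their own inhibitors, which close a negative feedback loop. The subunits RELA (p65), REL (c-Rel) and RELB carry transactivation domains. NFKB1 (p105, processed to p50) and NFKB2 (p100, processed to p52) are precursors that supply the DNA-binding partners, and uncleaved p105 and p100 themselves act as IkB proteins. NFKBIA and NFKBIE encode the cytoplasmic inhibitors IkB-alpha and IkB-epsilon, whereas NFKBIZ encodes IkB-zeta, a nuclear IkB protein that modulates transcription. TNFAIP3 (A20) edits ubiquitin chains on signalling proteins upstream of the kinase, and BIRC3 (c-IAP2) is a ubiquitin ligase of TNF receptor complexes that also restrains the non-canonical pathway.

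Promoter letters are shown because several of these genes are themselves known NF-kB targets. RefSeq promoter windows (build GRCh38.p14) were found for 8 of the 10 genes, as 13 windows of 250 bases before a transcription start; RELB and NFKBIE were not among them. The letters GGGNNNTNCC, a simplified kB motif, were searched on both strands. A match was present in 10 of the 13 windows, against 18.9% of 35116 promoter windows of the same length. By gene, 7 of the 8 had a match in any window, with RELA as the exception. Genes had up to 3 windows, so the count of genes is not comparable with that share. The AP-1 letters TGANTCA, searched in the same way, were in 6.57% of all windows and in 0 of the 13. A match describes the letters and is not evidence of binding. The windows given here, 5′ to 3′ with matches in capitals, are those of TNFAIP3, with its pair of adjacent matches 67 and 55 bases before the start, of BIRC3, of the classical inhibitor NFKBIA and of the first start of NFKB1, as examples of subunit and feedback genes. Matches on the opposite strand read as the reverse complement of the searched letters.
TNFAIP3, chr6:137867009-137867258, plus strand: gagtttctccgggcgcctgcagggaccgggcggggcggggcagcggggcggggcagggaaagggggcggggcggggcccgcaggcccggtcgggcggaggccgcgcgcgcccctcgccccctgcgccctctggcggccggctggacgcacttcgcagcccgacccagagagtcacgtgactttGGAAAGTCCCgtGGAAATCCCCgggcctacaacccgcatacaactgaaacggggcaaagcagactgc
BIRC3, chr11:102317234-102317483, plus strand: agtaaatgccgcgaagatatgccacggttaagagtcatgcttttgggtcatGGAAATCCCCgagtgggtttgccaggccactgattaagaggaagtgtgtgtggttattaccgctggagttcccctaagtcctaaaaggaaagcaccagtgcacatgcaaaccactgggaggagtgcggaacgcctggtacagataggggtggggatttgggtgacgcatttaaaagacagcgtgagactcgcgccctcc
NFKBIA, chr14:35404750-35404999, minus strand: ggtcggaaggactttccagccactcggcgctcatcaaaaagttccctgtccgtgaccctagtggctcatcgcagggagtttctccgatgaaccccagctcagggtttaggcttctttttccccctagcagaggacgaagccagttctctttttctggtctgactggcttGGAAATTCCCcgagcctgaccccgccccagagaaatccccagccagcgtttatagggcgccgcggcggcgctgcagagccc
NFKB1, chr4:102501109-102501358, plus strand: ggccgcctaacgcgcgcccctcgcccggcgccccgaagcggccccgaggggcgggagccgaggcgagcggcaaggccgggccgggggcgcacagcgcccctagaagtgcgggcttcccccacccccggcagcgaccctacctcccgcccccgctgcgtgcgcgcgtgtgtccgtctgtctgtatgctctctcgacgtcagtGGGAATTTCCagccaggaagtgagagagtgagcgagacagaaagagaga

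All levels are log2 processed signals relative to the 75th percentile of the same array, where 0 is that percentile, and they do not allow 1 gene to be set against another. The technical SD of a difference comes from probes printed in 10 spots and covers the array surface only. NFKB1, NFKB2, RELA and NFKBIA were printed in 10 spots and the other 6 genes in 2. In all, 9 of the 10 genes were well above background on each of the 8 arrays, and NFKBIZ on 7. The 75th percentile of the signal itself lay between 661.2 and 817.6 on treated p53+/+ arrays and between 1118.5 and 1198.8 on treated p53-/- arrays, and all p53-/- arrays were in another column of the slide than the p53+/+ arrays, so slide column and genotype cannot be told apart. Keratins and other basal epithelial markers were present (7 of 8 well above background on every array, and TP63 on 3), with a summed linear level of 287 to 441 times the 75th percentile on treated p53+/+ and 149 to 172 on treated p53-/- arrays. Of 8 leukocyte markers, 4 (PTPRC, CD14, CD68 and SPI1) were well above background on every array, and CD53 on none, and their sums were 3.47 to 4.34 on treated p53+/+ and 5.59 to 7.85 on treated p53-/- arrays. Of 7 fibroblast and endothelial markers, COL1A2 and COL3A1 were on no array and only CDH5 on all, with sums of 0.213 to 0.255 and of 0.513 to 0.638. Of 3 luminal markers, PGR was on no array, GATA3 on all and ESR1 on 7, with sums of 0.69 to 0.986 and of 0.239 to 0.442. The part of these differences in the results below was not tested.

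The genotype labels were checked with CDKN1A and MDM2, textbook targets that p53 induces. CDKN1A read 2.54, 2.63 and 2.70 on the p53+/+ arrays at 12, 24 and 48 h and -2.97, -0.96, -0.64 and -0.48 on the p53-/- arrays at 0, 12, 24 and 48 h. MDM2 read 1.29, 1.49 and 1.76 on treated p53+/+ arrays and -1.33, -2.04, -1.33 and -1.57 on p53-/- arrays. The treated arrays thus followed their labels for both genes. On the array labelled p53+/+ 0 h, CDKN1A read -1.14 and MDM2 -1.66, so CDKN1A lay above the p53-/- 0 h array and MDM2 did not, and these genes do not settle the label of that untreated array. It is called the array labelled p53+/+ 0 h throughout. The comparison of treated arrays and the course of p53-/- cells do not use it. Changes in p53+/+ cells are given against it and against the p53-/- 0 h array.

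**Figure D1:**
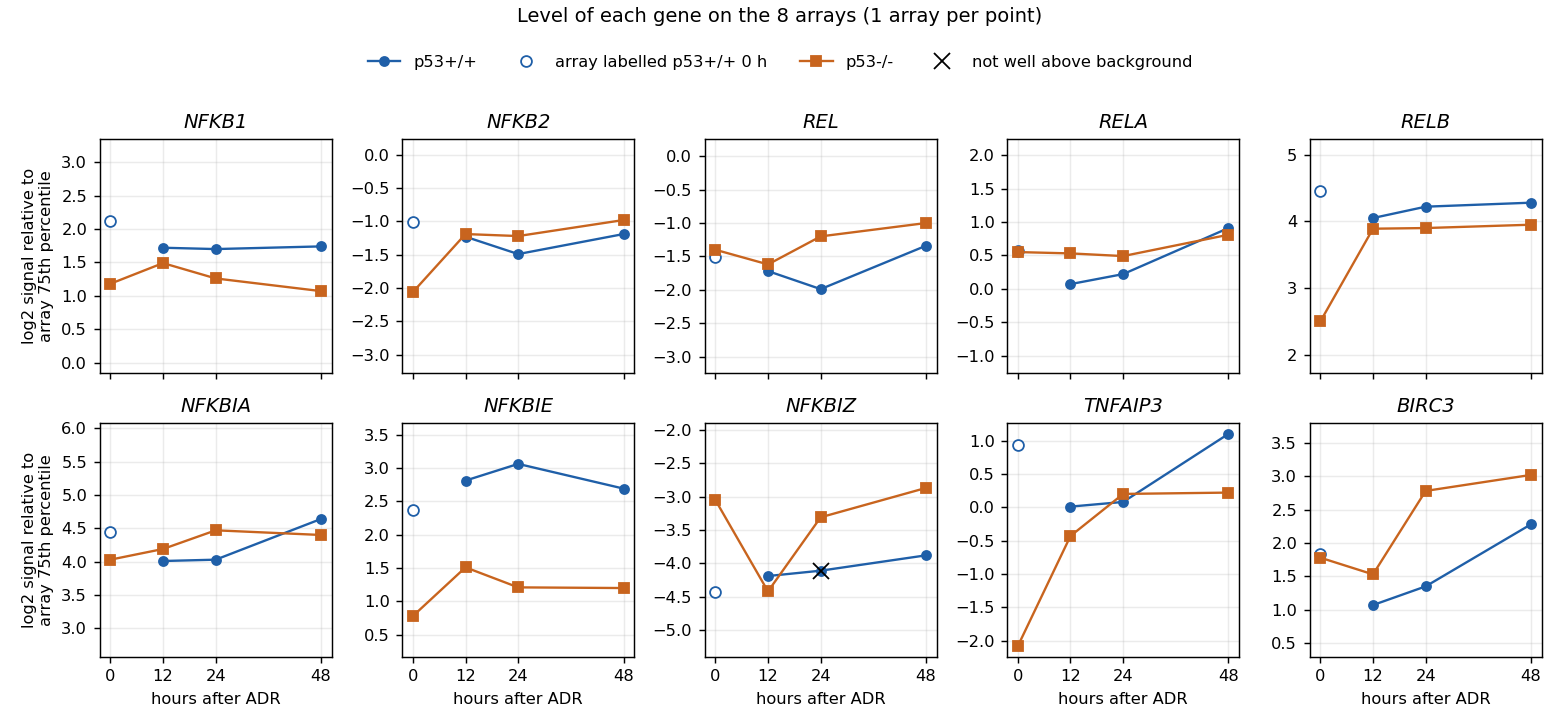
Level of each of the 10 genes (log2 signal relative to the 75th percentile of the array) against hours after ADR, with p53+/+ as blue circles, p53-/- as orange squares, the array labelled p53+/+ 0 h as an open circle, and a cross over the value not well above background; each point is 1 array and every panel spans the same range. NFKBIE is the gene with the widest gap between treated genotypes (2.69 to 3.06 against 1.20 to 1.51), and NFKB2, RELB, NFKBIE and TNFAIP3 each have their lowest level on the p53-/- 0 h array.

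Among treated cells, NFKBIE was the only gene of the 10 that differed between genotypes beyond its movement over time. It was higher in p53+/+ cells at all 3 times, 2.92-fold on average, while the classical inhibitor NFKBIA and the subunits RELA and NFKB2 differed by at most 1.37-fold between genotypes at any time. NFKB1 and RELB were also higher in p53+/+ cells at all 3 times, without overlap of the groups. NFKB2, REL and BIRC3 were lower at all 3 times, and none of these genes passed. This comparison asked which of these transcripts differ between the genotypes in ADR-treated cells, and it uses no 0 h array. For NFKBIE the untreated arrays were as far apart, 3.02-fold higher on the array labelled p53+/+ 0 h, whose label was not settled. Whether the gap in treated cells depends on ADR was not tested.

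NFKBIE read 2.81, 3.06 and 2.69 in p53+/+ cells, against 1.51, 1.21 and 1.20 in p53-/- cells, at 12, 24 and 48 h. The lowest p53+/+ array thus lay more than 1 log2 unit above the highest p53-/- array. The differences were 1.31, 1.85 and 1.49, or 2.48-, 3.59- and 2.81-fold, each with a technical SD of 0.062. That SD is taken from other probes, and the spots of NFKBIE itself had an SD of 0.01 to 0.34 within an array. In the limma fit over the 6 treated arrays, in which the 3 times stand in for replicates, the mean difference was 1.55 ± 0.20 (SE, adjusted p = 0.00429, higher at 3 of 3 times). Adjusted p ran from 0.000603 to 0.115 over 11 alternatives, and the call was lost without the 24 h arrays, where the difference was 1.40. These are bulk RNA measurements, in which fewer cells of a type and less RNA per cell cannot be told apart.

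At a matched time, 1 of the 10 genes was at least 2-fold higher in p53+/+ cells and 0 lower at 12 h, beside 12.4 and 10.2% of all genes. At 24 h the counts were 1 higher, NFKBIE, and 1 lower, BIRC3, beside 12.7 and 14.5%. At 48 h they were again 1 higher, NFKBIE, and 1 lower, NFKBIZ, beside 15.6 and 15.8%. The shares of the 10 genes were thus no larger than those of all genes. The limma fit called 1 gene higher and 0 lower at an adjusted p of 0.05, beside 10.6 and 7.4% of 28947 probes. Over all probes, 58.8% of calls were higher in p53+/+ cells, 45.7% with median scaling, 48.3% with quantile normalization and 14.5% without scaling. NFKB1 and NFKBIE, both higher, were the 2 members at an unadjusted p under 0.05. The median fitted difference of the 10 was -0.15, against 0.09 for all probes. Without the scaling to the 75th percentile, NFKBIE kept its call (0.95, adjusted p = 0.0239), NFKB2, REL, RELA and NFKBIA were called lower in p53+/+ cells, and the differences of NFKB1, RELB and TNFAIP3 turned to -0.15, -0.33 and -0.20.

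**Figure D2:**
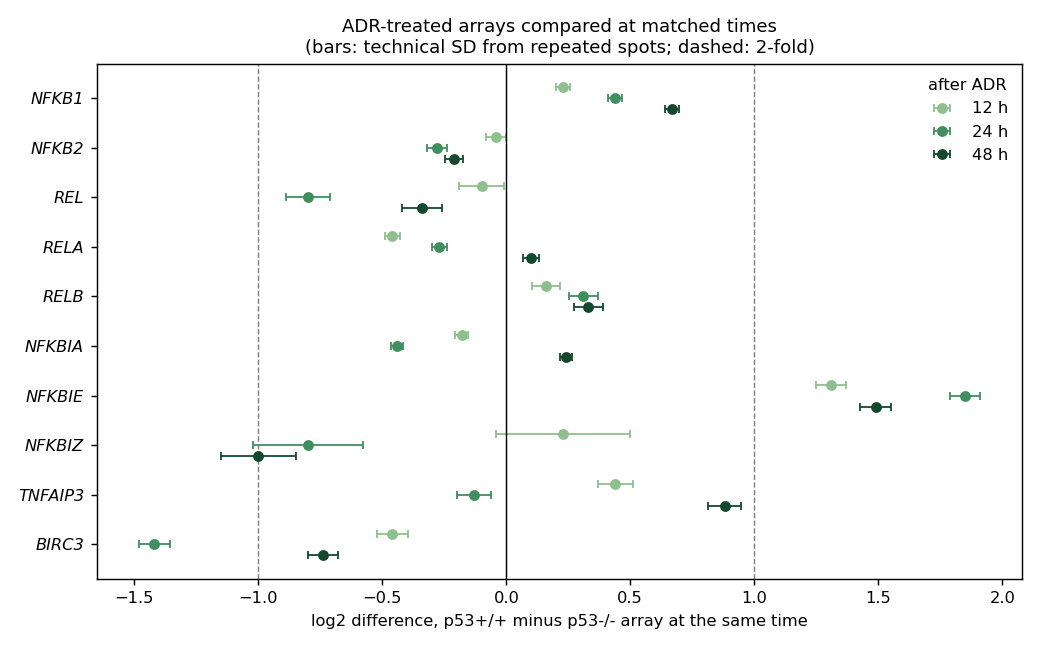
Log2 difference between the p53+/+ and the p53-/- array at 12, 24 and 48 h after ADR (light to dark green) for each gene, with bars for the technical SD from repeated spots and dashed lines at 2-fold. NFKBIE lies right of the 2-fold line at all 3 times, BIRC3 left of it at 24 h (-1.42) and NFKBIZ on it at 48 h (-1.0).

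Of the subunits with a transactivation domain, RELB was slightly higher in treated p53+/+ cells, at 4.05, 4.22 and 4.28 against 3.89, 3.90 and 3.95 in p53-/- cells. The groups did not overlap, but the gap was small, with differences of 0.16, 0.31 and 0.33 and a mean of 0.27 ± 0.17 (SE, limma adjusted p = 0.31). RELA read 0.07, 0.22 and 0.91 in p53+/+ and 0.53, 0.49 and 0.81 in p53-/- cells. Its sign changed with time, from lower in p53+/+ cells at 12 and 24 h to higher at 48 h, and the mean difference was -0.21 ± 0.27 (adjusted p = 0.634). The dimmer second RELA probe gave differences of -0.41, -0.18 and -0.04, against -0.46, -0.27 and 0.10. REL read -1.72, -1.99 and -1.34 in p53+/+ and -1.62, -1.20 and -1.0 in p53-/- cells. It was lower in p53+/+ cells at each time, most at 24 h (-0.80), and the groups overlapped (mean -0.41 ± 0.26, adjusted p = 0.31).

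Of the precursors, NFKB1 stayed at 1.72, 1.70 and 1.74 in p53+/+ cells while it read 1.49, 1.26 and 1.07 in p53-/- cells. The groups did not overlap. The p53+/+ values had an SD of 0.02 over the 3 times, and the difference widened with time to 0.67. Its mean difference of 0.45 ± 0.19 did not pass over all probes (adjusted p = 0.142, unadjusted p = 0.0474, higher at 3 of 3 times). NFKB2 read -1.23, -1.49 and -1.19 in p53+/+ and -1.19, -1.22 and -0.98 in p53-/- cells, with overlapping groups and a mean difference of -0.18 ± 0.19 (adjusted p = 0.557).

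Of the feedback genes other than NFKBIE, NFKBIA read 4.01, 4.03 and 4.64 in p53+/+ and 4.19, 4.47 and 4.40 in p53-/- cells. Neither genotype was higher throughout, and the mean difference was -0.12 ± 0.24 (adjusted p = 0.758). TNFAIP3 read 0.01, 0.08 and 1.10 in p53+/+ and -0.43, 0.20 and 0.22 in p53-/- cells. The ubiquitin editor was therefore near-equal at 24 h and 1.84-fold higher in p53+/+ cells at 48 h, a mean of 0.40 ± 0.36 (adjusted p = 0.482). BIRC3 read 1.07, 1.35 and 2.28 in p53+/+ and 1.53, 2.78 and 3.02 in p53-/- cells. It was 1.38-, 2.68- and 1.67-fold higher in p53-/- cells, yet levels were higher at 48 h than at 12 h in both genotypes and the groups overlapped, and the mean of -0.87 ± 0.48 did not pass (adjusted p = 0.253, and 0.0858 with time as a block). NFKBIZ was dim, at -4.19, -4.11 and -3.88 in p53+/+ and -4.42, -3.31 and -2.87 in p53-/- cells. The 24 h p53+/+ array was not well above background, and NFKBIZ read 1.74-fold higher in p53-/- cells there, with a technical SD of 0.22. At 48 h it was 2.01-fold higher in p53-/- cells, right at the threshold. Its mean difference was -0.52 ± 0.40 (limma adjusted p = 0.402), and 0.01 with normexp background correction.

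The 48 h and 12 h arrays were also compared within each genotype, which likewise needs no 0 h array. In p53+/+ cells BIRC3 was 2.31-fold and TNFAIP3 2.12-fold higher at 48 h than at 12 h, with differences of 1.21 and 1.08 and technical SDs of 0.062 and 0.066. They were 2 of the 10 genes at least 2-fold higher, with 0 lower, beside 6.86 and 6.99% of all genes. In p53-/- cells NFKBIZ was 2.93-fold and BIRC3 2.81-fold higher at 48 h. These were again 2 of 10, with 0 lower, beside 12.4 and 2.97% of all genes. BIRC3 was thus past 2-fold in both genotypes. RELA was 1.79-fold higher at 48 h in p53+/+ cells (0.84) and moved by 0.28 in p53-/- cells, where REL moved by 0.62. NFKB1, NFKB2, RELB and NFKBIE moved by at most 0.42 between 12 and 48 h in either genotype.

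From 0 h to the treated times in p53-/- cells, TNFAIP3 and RELB were higher at every time. The A20 gene TNFAIP3 was 3.15-, 4.87- and 4.92-fold and the subunit gene RELB 2.62-, 2.64- and 2.73-fold higher than at 0 h. NFKB2, whose p100 product is the inhibitory partner of RELB, was 1.83-, 1.79- and 2.12-fold higher, and BIRC3 passed 2-fold at 48 h only. This comparison asked how the pathway's own genes move after ADR when p53 is missing.

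TNFAIP3 stood at -2.08 at 0 h and read -0.43, 0.20 and 0.22 at 12, 24 and 48 h, changes of 1.66, 2.28 and 2.30 with technical SDs of at most 0.099. RELB stood at 2.50 and read 3.89, 3.90 and 3.95. Its level was thus reached by 12 h and held, while TNFAIP3 went on to 24 h. NFKB2 stood at -2.06 and changed by 0.87, 0.84 and 1.08. BIRC3 stood at 1.78 and changed by -0.25, 0.99 and 1.24, so the 24 h value lay just under 2-fold (1.99) and the 48 h value, 2.36-fold, above it. NFKBIZ went the other way at 12 h, from -3.05 to -4.42, a 2.59-fold lower level with a technical SD of 0.22, and was back to -3.31 and -2.87 later. NFKBIE stood at 0.78 and changed by 0.73, 0.43 and 0.42. NFKBIA, NFKB1, REL and RELA changed by -0.23 to 0.44.

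Of the 10 genes, 2 were at least 2-fold higher and 1 lower at 12 h, beside 4.48 and 5.35% of all genes. At 24 h the counts were 2 and 0, beside 8.91 and 5.45%, and at 48 h 4 and 0, beside 15.0 and 7.46%. The share of members that were higher was thus above that of all genes at each time, in a set of 10 genes and with 1 array a time, and no test of it is given. Every time is set against the same p53-/- 0 h array, so the times do not repeat the result independently. On that array NFKB2, RELB, NFKBIE and TNFAIP3 were lower than on any other. The member medians were 0.23, 0.43 and 0.41 against 0.00, 0.00 and 0.08 for all genes.

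**Figure D3:**
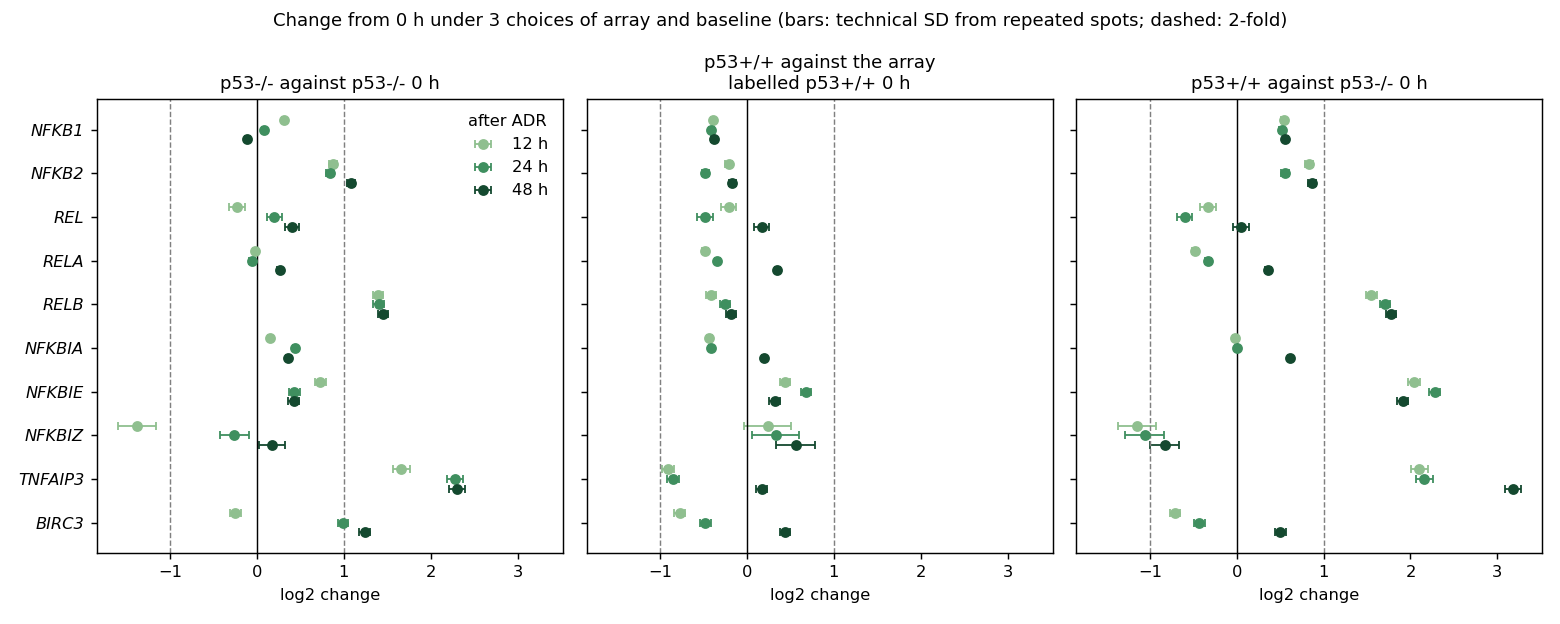
Log2 change of each gene at 12, 24 and 48 h after ADR (light to dark green) in p53-/- cells against their 0 h array (left), in p53+/+ cells against the array labelled p53+/+ 0 h (middle) and in p53+/+ cells against the p53-/- 0 h array (right), with bars for the technical SD and dashed lines at 2-fold. TNFAIP3 and RELB lie beyond 2-fold in the left and right panels (TNFAIP3 1.66 to 2.30 and 2.10 to 3.18) and no gene does in the middle one. The left and right panels share the same baseline array.

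In p53+/+ cells the answer turned on the baseline. Against the array labelled p53+/+ 0 h, 0 of the 10 genes passed 2-fold in either direction at any time, and TNFAIP3 was lower at 12 and 24 h, by values of -0.91 and -0.85. Against the p53-/- 0 h array, TNFAIP3, RELB and NFKBIE were past 2-fold at all 3 times. TNFAIP3 was then 4.28-, 4.46- and 9.05-fold, NFKBIE 4.10-, 4.85- and 3.77-fold and RELB 2.93-, 3.28- and 3.43-fold higher.

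Over all genes the 2 baselines gave similar shares. Against the array labelled p53+/+ 0 h, 12.9, 15.8 and 17.3% of all genes were at least 2-fold higher at 12, 24 and 48 h and 11.3, 15.1 and 13.1% lower. Against the p53-/- 0 h array, the shares were 13.3, 15.5 and 16.9% higher and 11.6, 14.6 and 13.0% lower, with 3 of the 10 genes higher at each time and 1, 1 and 0 lower. The gene that was lower was NFKBIZ, by 2.21-fold at 12 h and 2.09-fold at 24 h, where the p53+/+ array was not well above background. NFKBIE had values of 0.44, 0.68 and 0.32 against the array labelled p53+/+ 0 h and 2.04, 2.28 and 1.91 against the other.

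The 2 untreated arrays were at least 2-fold apart in 5 of the 10 genes. The array labelled p53+/+ 0 h was 8.05-fold higher for TNFAIP3, 3.89-fold for RELB, 3.02-fold for NFKBIE and 2.06-fold for NFKB2, and 2.62-fold lower for NFKBIZ. That made 4 of 10 higher and 1 of 10 lower, beside 3.8 and 5.07% of all genes. Its levels for TNFAIP3 (0.93), RELB (4.46) and NFKB2 (-1.01) lay near those of the treated arrays, at -0.43 to 1.10, 3.89 to 4.28 and -1.49 to -0.98. NFKB1 at 2.12 was higher there than on any other array. RELA (0.56 and 0.55) and BIRC3 (1.83 and 1.78) read nearly the same on both, within technical SDs of 0.031 and 0.063. Because the label of this array was not settled, the difference cannot be given to the p53 genotype, and no test is possible with 1 array each.

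Over all 8 arrays, 7 of the 10 genes spanned at least 1 log2 unit. The genes with the most similar course were sought among 6765 genes that were well above background on every array and spanned as much, by Pearson's r over 8 arrays that share a slide and come as 4 times of each genotype, so that r describes these arrays and carries no p. RELB ran most like IRF1, an interferon response factor (r = 0.984, and 0.715 over the 6 treated arrays), and TNFAIP3 most like RELB (0.945, and 0.687). NFKBIA ran most like the chemokine gene CXCL2 (0.926, and 0.915). NFKBIE ran most like the channel gene HCN2 (0.985, and 0.983), followed by ARHGAP42 (0.969) and the neurotrophin gene BDNF (0.967). Nearest to BIRC3 was ADAMTSL4 (0.959), to NFKBIZ the pantetheinase gene VNN1 (0.976), to NFKB1 C11orf91 (0.942), to NFKB2 SMG8 (0.945, and 0.622 over the treated arrays), to REL the corepressor gene TLE1 (0.960) and to RELA MSTO1 (0.971). The likeness of RELB, TNFAIP3 and NFKB2 to these partners was lower over the treated arrays alone, which leave out both 0 h arrays.

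Genes from the rest of the pathway also differed between treated genotypes. Upstream of the kinase, the interleukin-1 genes IL1A and IL1B were 38.4- and 15.4-fold higher in treated p53+/+ cells. Among the target genes, IL6, CXCL8 and TNFAIP6 were lower there and LIF and NINJ1 higher. Of the list of other inhibitors, closest in role to the feedback genes, 0 of 26 were called higher and 2 lower, beside 10.6 and 7.4% of all probes.

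Of 34 ligands, receptors and adaptors, 28 were tested, with 5 called higher in treated p53+/+ cells and 4 lower by limma at an adjusted p of 0.05, beside 10.6 and 7.4% of all probes, and a median difference of -0.07. IL1A, an epithelial alarmin that signals to NF-kB, read 2.48, 2.76 and 2.98 in p53+/+ and -2.47, -2.70 and -2.40 in p53-/- cells. That is a mean of 5.26 ± 0.21 (adjusted p = 0.000113), or 38.4-fold. IL1B, the secreted sister cytokine, read 4.15, 5.13 and 5.64 against 1.17, 0.70 and 1.24 (15.4-fold, adjusted p = 0.00222). Neither pair of groups overlapped. TRAF1, an adaptor that binds TNF receptors, and IL18R1, a subunit of the interleukin-18 receptor, were lower in p53+/+ cells, where they were not well above background, by at least 2.23- and 2.52-fold (adjusted p = 0.00349 and 0.0121). The other 5 genes called were CD40, IL1RAP and CARD10, which were higher, and RIPK1 and TRAF2, which were lower.

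Of 18 kinases and DNA damage genes, all tested, 3 were called higher and 1 lower beside the same shares of all probes (median -0.09). PIDD1, a p53-induced death domain protein that links DNA damage to NEMO, read 4.98, 5.81 and 5.34 in treated p53+/+ and 2.74, 3.31 and 3.05 in treated p53-/- cells, 5.08-fold (adjusted p = 0.00349). TAB3, an adaptor of the kinase TAK1, was 5.04-fold higher (adjusted p = 0.00344) and TBK1, an IKK-related kinase, 1.88-fold (adjusted p = 0.0281). MAP3K8, the kinase bound by p105, was at least 2.45-fold lower in p53+/+ cells, where it was not well above background (adjusted p = 0.0181). The kinase subunits CHUK, IKBKB and IKBKG and the damage kinase ATM did not pass.

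Of 27 other inhibitors and ubiquitin editors, 26 were tested, with 0 called higher and 2 lower by limma, beside 10.6 and 7.4% of all probes (median 0.02). At an unadjusted p under 0.05 the counts were 2 and 3. The 2 genes called were lower in p53+/+ cells. NFKBID, a nuclear IkB protein, was at least 2.74-fold lower (adjusted p = 0.0206). BIRC2, the close relative and chromosomal neighbour of BIRC3, was 1.80-fold lower (adjusted p = 0.0245). Of 39 target genes, 35 were tested, with 5 higher and 6 lower, again beside 10.6 and 7.4% of all probes (median 0.00). IL6 read -1.97, -1.58 and -1.08 in treated p53+/+ and 1.08, 2.20 and 2.50 in treated p53-/- cells (11.1-fold lower, adjusted p = 0.00381). TNFAIP6 and the neutrophil chemokine CXCL8 were at least 23.8- and 2.92-fold lower (adjusted p = 0.00232 and 0.000241), again not well above background in p53+/+ cells. LIF, an IL6-family cytokine, was 4.60-fold and NINJ1, a membrane rupture protein, 3.04-fold higher (adjusted p = 0.00494 and 0.00293). ICAM1, BCL2L1 and CSF3 were the other targets called higher and CXCL3, GADD45B and TNFRSF9 the others called lower. NF-kB target genes thus differed in both directions.

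**Figure D4:**
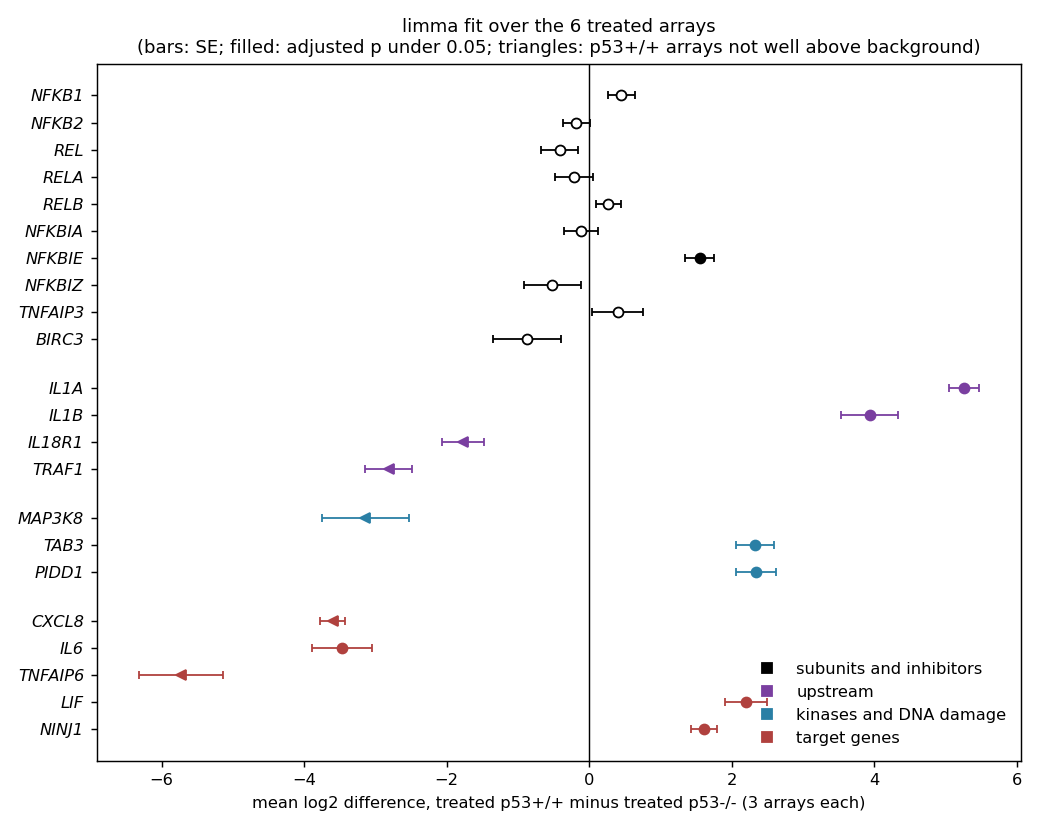
Mean log2 difference between treated p53+/+ and treated p53-/- arrays (3 each) from the limma fit, with bars for the SE, for the 10 genes (black) and for the genes named from the upstream, kinase and target lists; filled symbols passed an adjusted p of 0.05, and triangles mark genes not well above background on the 3 treated p53+/+ arrays, whose positions are not bounds. NFKBIE (1.55) is the sole filled black symbol, and IL1A (5.26) and TNFAIP6 (-5.73) lie farthest out.

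In p53-/- cells many target genes, too, were higher after ADR than at 0 h. At least 2-fold higher than at 0 h were 9 of 33, 13 of 33 and 19 of 34 target genes at 12, 24 and 48 h, beside the 4.48, 8.91 and 15.0% of all genes, and 2, 0 and 0 were lower. Their medians were 0.33, 0.79 and 1.09, beside all-gene medians of 0.00, 0.00 and 0.08. These times, too, share the same p53-/- 0 h array. IL6 changed by 4.60, 5.73 and 6.03 and LIF by 3.91, 3.01 and 2.97, while CXCL8 changed by 0.33, 0.32 and 0.32. The array labelled p53+/+ 0 h was again high, with 13 of 32 target genes at least 2-fold above the p53-/- 0 h array and 1 below. For treated p53+/+ cells, 5, 8 and 9 of 32 to 33 target genes were at least 2-fold higher than that array and 11, 11 and 8 lower, whereas 12, 15 and 19 were higher than the p53-/- 0 h array and 4, 4 and 4 lower.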

How the data were processed

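Total RNA of MCF10A p53+/+ and p53-/- cells was hybridised in a single colour to Agilent SurePrint G3 Human GE arrays, 1 for each of 2 genotypes and 4 times, all on 1 slide with 1 scan time. The deposited values used are spot intensity, the processed signal that Feature Extraction 10.7.3.1 had corrected for background; per the file headers the probes were designed on hg19. The deposited whole-series table repeated these intensity values (503808 of 503808 equal). No normalization between arrays is given in the sources used here. Of 62976 spots, uneven and outlying spots and controls were left out. Spots of a probe were averaged as log2 signal less the log2 75th percentile of their array. Probes were named through RefSeq accessions (GRCh38.p14) or, failing that, Ensembl identifiers, gene symbols or unique aliases. In all, 27223 of 42391 probes (64.2%) were named, giving 20292 genes. The brightest probe stood for a gene. With 1 array per condition, changes were judged by a 2-fold rule without a test, among genes well above background on at least 1 of the 2 arrays. limma (lmFit and eBayes, 4 residual degrees of freedom, Benjamini-Hochberg over 28947 probes that cleared background on 1 array or more) compared genotypes over the 6 treated arrays, and was tested on simulated data. Its p-values measure the difference against the movement over time, since no biological replicates exist. A fold given as "at least" is against arrays not well above background. It was taken against the higher of the signal of the dimmest probe well above background on that array and the probe's own. For NFKBIZ at 24 h the probe's own signal was the higher, so its folds are given without a bound. The 10 genes and the gene lists were chosen with earlier results of these data known; named list genes were at least 2-fold apart in the same direction at all 3 times, up to 5 per list. Alternatives were other scalings, quantile normalization, normexp background correction (offset 50), the mean of all probes, other filters, time as a block, each time left out, a 3-fold rule and the p53-/- 0 h baseline. The number of arrays limits the precision. Some items are not reported here. Fits were run with limma 3.58.1 in R 4.3.3, and all else with pandas 2.3.3 and numpy 2.4.6 in Python 3.11.15, with plots by matplotlib 3.10.9.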

Additional observations from a re-analysis of the deposited data

Results flagged for a closer look

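NFKB2 and RELB moved in opposite directions from 0 h in the 2 genotypes, with every treated array of one genotype on the other side of 0 from every treated array of the other. The mean change of NFKB2 was -0.29 in p53+/+ and 0.93 in p53-/- cells, a difference of -1.22 on the log2 scale. That of RELB was -0.28 and 1.41, a difference of -1.69. The difference was not tested, and both p53+/+ values rest on the array labelled p53+/+ 0 h, whose label was not settled. Against the p53-/- 0 h array the p53+/+ changes were 0.83, 0.56 and 0.87 for NFKB2 and 1.55, 1.71 and 1.78 for RELB, on the same side as in p53-/- cells.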

How the results depend on the processing

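The number of genes called in the treated comparison depended on the setting. NFKBIE kept its direction under all 11 alternatives and its call under 10. Without the 24 h arrays its difference was 1.40 (adjusted p = 0.115) and 0 of the 10 genes were called higher, when 207 and 85 of all probes, higher and lower, passed in place of 3058 and 2143. Without scaling, which moved the median of all probes from 0.09 to -0.51, 4 members were called lower, 8 of 30 matched-time values were at least 2-fold apart in place of 5, and the differences of NFKB1, RELB and TNFAIP3 turned to -0.15, -0.33 and -0.20. The difference of NFKBIA turned to 0.03 without the 24 h arrays and that of NFKBIZ to 0.01 with normexp. The 3-fold rule left 1 of 5 matched-time values, 3 of 9 changes in p53-/- cells and 3 of 5 differences at 0 h, and normexp likewise left 3 at 0 h. Changes in p53+/+ cells against the array labelled p53+/+ 0 h rose from 0 of 30 to 1 with median scaling and 3 without scaling, and were 11 of 30 against the p53-/- 0 h array. Over all probes, normexp called 7257 higher and 2637 lower, no filter on dim probes 9832 and 2704, and no scaling 1365 and 8028, while 1459 and 1211 passed without the 12 h arrays and 1438 and 1133 without the 48 h arrays. Of all calls, 73.3% were higher with normexp, 78.4% without the filter and 70.9% without the 24 h arrays, in place of 58.8%. With time as a block, which pairs the genotypes, NFKBIE stayed called (adjusted p = 0.0168) and no call on the 10 genes changed. No further paired analysis was possible because each genotype and time has 1 array. Except where a value above shows it, the cause was not tested.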
